A study of Mus musculus with 12 samples.

Results

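The genes described here encode the first steps by which a cell takes up choline and ethanolamine and turns them into phospholipid head groups. They are 7 genes chosen by symbol: the choline transporters Slc44a1 and Slc44a2, the choline kinases Chka and Chkb, the ethanolamine kinase Etnk1, and the cytidylyl transferases Pcyt1a and Pcyt2. All 7 are among the 43243 gene names in the files and among the 13600 genes that passed a level filter (RPKM of 1 or more in 6 or more of the 12 libraries). RPKM is reads per kilobase of transcript and per unit of library depth. The set was built around Chka, which had been picked for its difference between SPOPmut and SPOPwt, and the question put to the other 6 was whether they follow it. The genotype differences of the 7 genes are therefore given as a description, with no p-value for any of them.

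Phosphatidylcholine and phosphatidylethanolamine, the most abundant phospholipids of mammalian membranes, can both be made by the Kennedy pathway. A kinase phosphorylates choline or ethanolamine, a cytidylyl transferase activates the product with CTP, and a transferase joins the head group to diacylglycerol. CTP:phosphocholine cytidylyl transferase, encoded by Pcyt1a, is usually the rate-limiting step of the choline branch. Choline kinase alpha is raised in many cancers, prostate cancer among them, and has been described as a chaperone of the androgen receptor.

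RNA was sequenced from mouse prostate organoids, which are cultures grown in Matrigel from digested prostate tissue in medium with EGF. There were 6 libraries labelled SPOPmut and 6 labelled SPOPwt; both groups carry the numbers S0 to S5, which were taken to pair them. SPOP picks the substrates of a cullin 3 ubiquitin ligase, and the SPOPmut allele is named R26F133V in the protocols. Both groups come from cells with an inducible Cre (CreERT2), switched on with 1 μM 4-hydroxytamoxifen. In Line_A the Cre was delivered by virus with puromycin selection, and in Line_B it was a TMPRSS2-CreERT2 transgene. By the protocols, model A gave 5 of the pairs and model B the remaining 1, without naming them by number. Cells were sorted by GFP, or sham-sorted as controls, so the mutant and the selection by GFP cannot be told apart. The age of the mice is not given in the sources used here. Separate cultures or animals are not stated for the pairs, so p-values reflect the spread between these libraries alone, which may be technical.

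Estimated depth ran from 28440000 to 41020000 reads per library, and each of the 7 genes had at least about 580 reads in every library. Spop stood at 40.0 to 57.0 RPKM, and in 6 of 6 pairs the mutant had more of it than its control, with log2(RPKM + 1) differences of 0.035 to 0.27. Its reads may come from the endogenous gene and the transgene alike. Pair S5 stood apart in cell type markers, in both genotypes. The summed level of 8 epithelial markers was 3073 to 4051 RPKM in S5 and 11.8 to 114.8 RPKM in S0 to S4. The summed level of 8 mesenchymal markers was 0.52 to 0.68 RPKM in S5 and 1206 to 2053 RPKM in S0 to S4. In S0 to S4 the epithelial markers Krt5, Krt14, Epcam and Cdh1 reached at most 0.24, 0.20, 1.28 and 1.34 RPKM, while Trp63 reached 2.28, Krt15 8.15, Krt8 21.5 and Krt18 89.6 RPKM. All 8 were higher in both S5 libraries than in these 10. Immune and endothelial markers stayed low in all 12 libraries, as 8 of the 9 genes never reached 1 RPKM and Cd68 stood at 2.13 to 4.74 RPKM. Pair S0 stood apart in another way: the median absolute difference between its 2 libraries over all genes tested was 0.33 on the log2(RPKM + 1) scale, against 0.091 to 0.16 in the other pairs.

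The promoters of the choline kinase pair are shown because these isoenzymes catalyse the same reaction and yet had different patterns across the libraries. The 250 bases before the RefSeq start of each gene are given 5′ to 3′ on the gene's own strand (GRCm38.p6), Chka on the plus strand of chr19:3851523-3851772 and Chkb on the minus strand of chr15:89429928-89430177. Capitals mark the CCAAT box (CCAAT), the GC box (GGGCGG) and the TATA box (TATAAA), each searched on both strands.
Chka: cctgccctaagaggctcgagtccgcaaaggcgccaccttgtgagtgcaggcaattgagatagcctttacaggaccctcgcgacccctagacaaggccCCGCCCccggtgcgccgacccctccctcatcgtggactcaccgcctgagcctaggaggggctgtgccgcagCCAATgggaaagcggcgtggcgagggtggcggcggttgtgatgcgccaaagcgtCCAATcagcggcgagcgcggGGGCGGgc
Chkb: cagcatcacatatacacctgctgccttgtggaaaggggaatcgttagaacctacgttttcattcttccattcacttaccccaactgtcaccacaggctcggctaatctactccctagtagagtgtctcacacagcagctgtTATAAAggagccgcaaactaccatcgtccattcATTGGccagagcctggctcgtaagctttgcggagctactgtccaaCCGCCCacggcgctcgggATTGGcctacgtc
Both windows held 2 CCAAT boxes, which 33.8% of 32851 such mouse windows contain at least once. The Chka window held 2 GC boxes and no TATA box, and the Chkb window held 1 of each. Matches were counted at any position in the window, so they do not show a working element. GC boxes were present in 32.7% of windows and TATA boxes in 12.4%. The Chka window was richer in G and C, with 68.0% and 24 CpG dinucleotides, than the Chkb window with 52.4% and 12, against medians of 52.4% and 6 over all windows. The E-box (CACGTG), the core of the hypoxia element (ACGTG) and the steroid receptor motif (AGAACA) had no match in either window. RefSeq windows were found for 6 of the 7 genes, Pcyt2 being the exception.

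Chka encodes choline kinase alpha, which phosphorylates choline and also ethanolamine, and it lies on chromosome 19 at 3851773 to 3894369 (plus strand, GENCODE M21 on GRCm38). In the SPOPwt libraries it stood at 15.4 (S0), 14.0 (S1), 14.9 (S2), 15.2 (S3), 18.1 (S4) and 60.4 RPKM (S5). The SPOPmut libraries of the same pairs stood at 11.5, 12.3, 12.3, 10.6, 12.2 and 32.3 RPKM. Within S0 to S4 the mutants ranged from 10.6 to 12.3 RPKM and the controls from 14.0 to 18.1 RPKM. How many of all genes tested were separated in this way was not counted, and Chka was chosen for this contrast. The S5 libraries were both far above the rest, the mutant included, so over all 6 pairs the groups overlapped. The mutant was lower by 25.2% in S0, 12.5% in S1, 17.1% in S2, 30.0% in S3, 32.7% in S4 and 46.6% in S5. On the log2(RPKM + 1) scale the mean difference was -0.45 ± 0.25 (SD over 6 pairs), from -0.18 in S1 to -0.88 in S5. A lower value in 6 of 6 pairs was found for 1.68% of the 13600 genes tested, and Chka was chosen for being one of them.

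The size of the Chka difference also stood differently among the genes of each pair. In S5, 83 of 13600 genes had a more negative difference, in S4 it was 156 genes, in S3 238 and in S2 493. In S1 there were 2082 such genes, and in S0 there were 3041, or 22.4% of those tested. The S0 difference of Chka, -0.39, was thus of ordinary size for that pair, while the smaller difference in S2, -0.25, was among the lowest 3.63%. Markers of other cell states also differed between the libraries of a pair. The mean difference over 8 proliferation markers was -0.97 in S0, 0.080 in S1, 0.072 in S2, 0.38 in S3, -0.34 in S4 and -0.72 in S5. That over 8 mesenchymal markers was 0.30, 0.41, 0.34, 0.031, 0.20 and 0.026 from S0 to S5. In S5 these 8 summed to at most 0.68 RPKM, so the value there rests on levels near 0. The mean also hides single markers: in S0, Vim and Cdh2 were lower in the mutant, while the other mesenchymal markers were higher. The mean difference over 8 epithelial markers was 0.81, -0.087, -0.060, 0.24, 0.30 and 0.19 from S0 to S5. The part of these markers in the Chka difference was not tested. The antisense gene Gm16066, which overlaps Chka, ranged from 1.12 to 2.20 RPKM over S0 to S4 and was at 4.40 RPKM in the S5 control and at 2.14 RPKM in the S5 mutant. The library kit does not mark strand, so reads of Gm16066 and Chka cannot be told apart where their exons overlap.

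**Figure D1:**
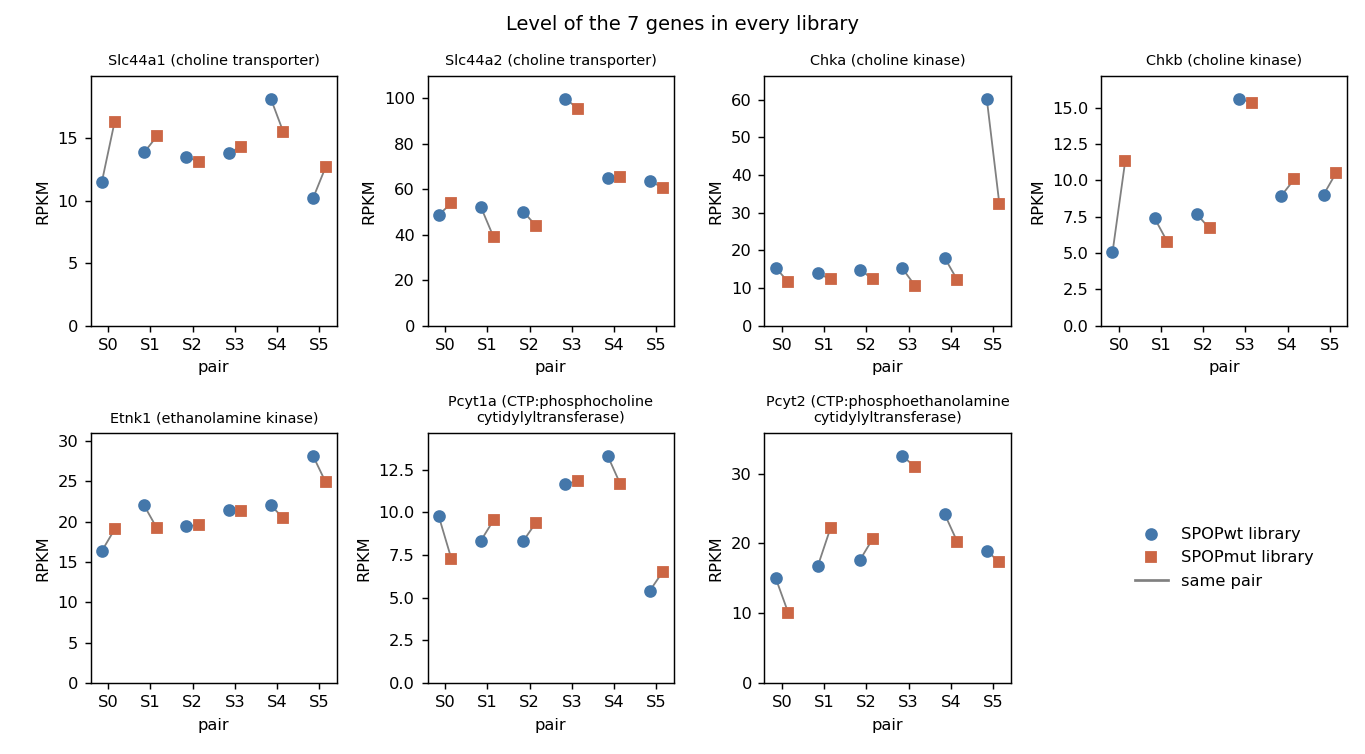
RPKM (linear axis from 0) of the 7 genes in each of 12 libraries, by pair; circles are SPOPwt, squares SPOPmut, and a grey line joins the libraries of a pair. Chka is lower in the mutant in all 6 pairs and reaches 60.4 RPKM in the S5 control, while each of the other 6 genes has pairs with the mutant above and pairs with it below.

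Chkb encodes choline kinase beta, the isoenzyme best known from muscle, and lies on chromosome 15 at 89426360 to 89429908 (minus strand). Its control libraries stood at 5.04 (S0), 7.38 (S1), 7.66 (S2), 15.7 (S3), 8.95 (S4) and 9.02 RPKM (S5), and its mutant libraries at 11.3, 5.77, 6.70, 15.4, 10.1 and 10.6 RPKM. The groups overlapped over almost their whole range, and the S3 pair was the highest in both. In 3 of 6 pairs the mutant had the higher Chkb level and in the other 3 the lower. The S0 mutant was at 2.25 times its control, a log2 difference of 1.03 that only 3.86% of genes in that pair exceeded, and the other pairs ranged from -0.31 to 0.20. The mean was 0.15 ± 0.47 (SD, 6 pairs) with S0 and -0.030 without it. C730034F03Rik, a coding gene that overlaps Chkb on the opposite strand, went from 2.14 to 4.74 RPKM in S0, and Cpt1b, the next gene downstream, from 0.91 to 1.68 RPKM. Gm44502, a model on the same strand, overlaps Chkb as well, so the Chkb values are uncertain.

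RPKM is per length, so the levels of both kinases were added and compared. The gene lengths behind the values are not given and the Chkb values are uncertain, so the shares and sums are approximate. Chka made up 65.5 to 75.4% of their sum in the controls of S0, S1, S2 and S4, 49.3% in the S3 control and 87.0% in the S5 control. In the mutants its share was 50.5% (S0), 68.0% (S1), 64.8% (S2), 40.9% (S3), 54.7% (S4) and 75.4% (S5). The share was lower in the mutant in 5 of 6 pairs, S1 being the exception. In S3 the Chkb value was above that of Chka in both libraries. In the S3 control it was so only by 15.7 against 15.2 RPKM, so the order there is uncertain. The sum of the pair was 15.6 to 17.7% lower in the mutants of S1 to S4 and 38.3% lower in that of S5. In S0 the sum was 11.7% higher in the mutant, at 22.9 against 20.5 RPKM, since Chkb was higher by more than Chka was lower. Chka was chosen for its genotype difference and enters both share and sum. Their direction in most pairs is therefore no separate result.

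**Figure D2:**
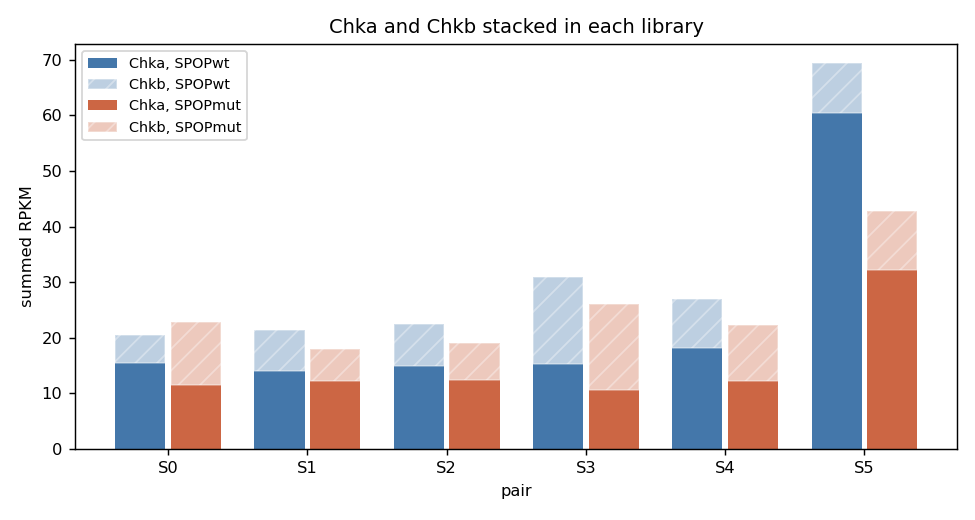
Stacked bars of Chka (solid) and Chkb (hatched) in RPKM, from 0, for the control (blue) and mutant (red) library of each pair. The sum is lower in the mutant in S1 to S5, and in S0 it is 22.9 RPKM against 20.5 RPKM in the control. It contains Chka, which was chosen for its genotype difference.

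Etnk1 encodes the ethanolamine kinase that opens the ethanolamine branch, and lies on chromosome 6 at 143167221 to 143232307 (plus strand). Over the 12 libraries it had the narrowest range of the 7 genes, with a highest library at 1.72 times the lowest. The controls stood at 16.4, 22.0, 19.4, 21.5, 22.1 and 28.2 RPKM from S0 to S5, and the mutants at 19.0, 19.2, 19.6, 21.3, 20.4 and 24.9 RPKM. The ranges overlapped in S0 to S4, and both S5 libraries were the highest. The pair differences ran from -0.19 in S1 to 0.21 in S0, with a mean of -0.044 ± 0.15 (SD, 6 pairs), lower in 4 of 6 pairs. Per length, Etnk1 was above Chka in the 10 libraries of S0 to S4 and below it in both libraries of S5.

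Pcyt1a lies on chromosome 16 at 32430921 to 32475070 (plus strand). It stood at 9.78, 8.35, 8.32, 11.7, 13.3 and 5.41 RPKM in the controls from S0 to S5 and at 7.27, 9.56, 9.40, 11.8, 11.7 and 6.50 RPKM in the mutants. The mutant was lower in S0 and S4 and higher in the other 4 pairs, so that the mean difference was 0.0030 ± 0.24 on the log2(RPKM + 1) scale (SD, 6 pairs). In S5, where Chka had its largest difference, Pcyt1a went the other way, by 0.23.

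Pcyt2 encodes the cytidylyl transferase of the ethanolamine branch and lies on chromosome 11 at 120610087 to 120617936 (minus strand). The controls stood at 15.1, 16.8, 17.7, 32.6, 24.3 and 18.9 RPKM from S0 to S5, and the mutants at 10.0, 22.2, 20.7, 31.0, 20.3 and 17.3 RPKM. The highest library was at 3.25 times the lowest, the widest range of the 7 genes within S0 to S4. Pcyt2 was lower in the mutant in 4 of 6 pairs, by as much as 0.54 in S0, and higher in S1 (0.38) and S2 (0.22). The mean was -0.063 ± 0.33 (SD, 6 pairs) with S0 and 0.032 without it. Pcyt1a and Pcyt2 took the same direction in 4 of 6 pairs, S0, S1, S2 and S4.

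Slc44a1 encodes a choline transporter of the plasma and mitochondrial membranes (chromosome 4, 53440413 to 53622478, plus strand). Its controls stood at 11.5, 13.9, 13.5, 13.8, 18.2 and 10.2 RPKM from S0 to S5 and its mutants at 16.3, 15.2, 13.1, 14.3, 15.5 and 12.7 RPKM. The mutant was the higher library in 4 of 6 pairs, most in S0 (0.47) and S5 (0.29), with a mean of 0.11 ± 0.24 (SD, 6 pairs). The antisense gene 1700060J05Rik overlaps it and stood at 1.74 to 3.46 RPKM over the 12 libraries.

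Slc44a2 encodes a related transporter, known in humans to carry a neutrophil antigen, and lies on chromosome 9 at 21320698 to 21355028 (plus strand). Per length it was the most abundant of the 7 genes in each of the 12 libraries, though in the S5 control it stood at 63.7 RPKM against 60.4 RPKM for Chka. The controls stood at 48.7, 52.0, 50.1, 99.9, 64.7 and 63.7 RPKM from S0 to S5, and the mutants at 53.9, 38.9, 44.0, 95.3, 65.4 and 60.6 RPKM. Both S3 libraries were above all others, and the genotypes overlapped. The difference was lower in 4 of 6 pairs, from -0.41 in S1 to 0.14 in S0, with a mean of -0.096 ± 0.19 (SD, 6 pairs).

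Set side by side, none of the other 6 genes followed Chka through all pairs. Etnk1, Pcyt2 and Slc44a2 were lower in the mutant in 4 of 6 pairs, Chkb in 3, and Pcyt1a and Slc44a1 in 2. Pair by pair, the number of these 6 genes, without Chka, that were lower in the mutant was 2 in S0, 3 in S1, 3 in S2, 4 in S3, 4 in S4 and 3 in S5. The median of their 6 mean differences was -0.020, against 0.00055 over all genes tested. limma, which fitted pair and genotype across all genes, called 0 of all 13600 genes in either direction at an adjusted p under 0.05, a share of 0%, so that the count for the 7 was also 0 and nothing is read from it. At an unadjusted p under 0.05 it held 761 genes, or 5.6%. Over the 10 libraries of S0 to S4 the Pearson correlation of log2(RPKM + 1) with Chka was 0.28 for Pcyt1a, 0.092 for Pcyt2, 0.063 for Etnk1, 0.026 for Slc44a1, 0.0029 for Slc44a2 and -0.25 for Chkb. These 10 libraries share pairs and are no independent points, and the values are a description.

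**Figure D3:**
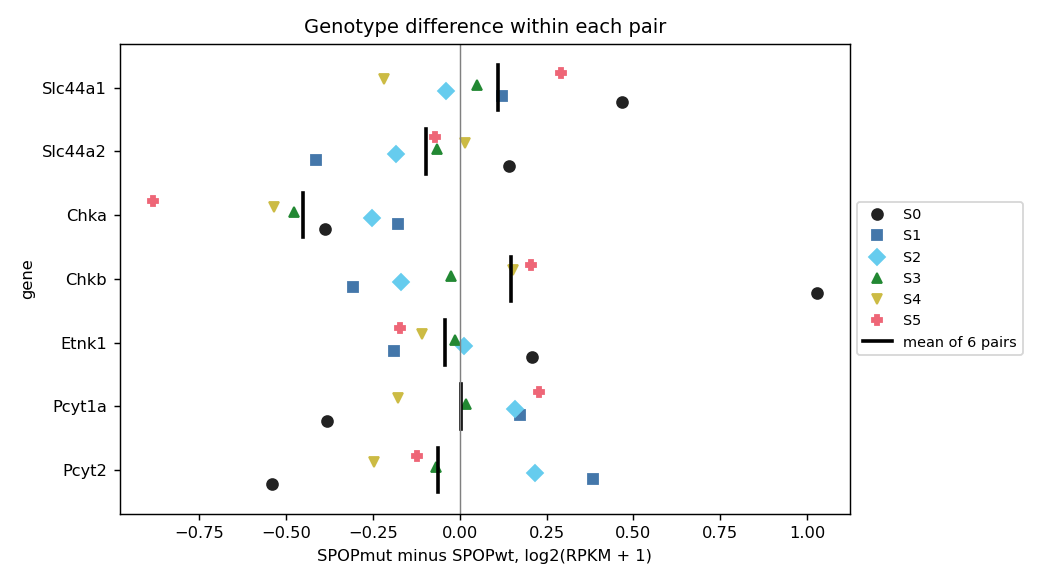
SPOPmut minus SPOPwt in log2(RPKM + 1) for each gene (rows) and pair (symbols), with a bar at the mean of 6 pairs. All 6 Chka symbols lie left of 0, from -0.88 to -0.18, and the S0 symbol of Chkb lies farthest right at 1.03.

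Of the 7 genes, Chka differed most between S5 and the other pairs. Its 2 S5 libraries, at 32.3 and 60.4 RPKM, were above all 10 libraries of S0 to S4 (10.6 to 18.1 RPKM), a mean log2 difference of 1.64 that exceeded 97.5% of the genes tested. Etnk1 was also above the range of the 10 (24.9 and 28.2 against 16.4 to 22.1 RPKM), by 0.39. Pcyt1a was below it (6.50 and 5.41 against 7.27 to 13.3 RPKM), by a log2 difference of -0.66. Chkb (0.13), Pcyt2 (-0.14), Slc44a1 (-0.32) and Slc44a2 (0.085) overlapped the 10 libraries. Lying above the 10 was found for 21.4% of all genes tested and lying below for 28.1%, against 2 and 1 of the 7 genes, so the counts are no result about the set. In bulk samples, fewer cells of a type and less RNA per cell cannot be told apart. S5 is 1 pair that was known to stand apart, so its levels are a description, and the part of the cell type markers in these levels was not tested. The protocols do not say whether S5 is the 1 pair of model B, and the part of the model was not tested either.

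The genotype difference in S5 lay outside the range of the other 5 pairs for 2 of the 7 genes. That of Chka was below it (-0.88 against -0.53 to -0.18), as for 20.5% of all genes, and that of Pcyt1a was above it (0.23 against -0.38 to 0.17), as for 18% of all genes. For the other 5 genes the S5 difference lay within that range. In linear terms Chka was 28.1 RPKM lower in the S5 mutant and 1.75 to 5.91 RPKM lower in the mutants of S0 to S4.

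The rest of phospholipid head group synthesis was followed in 5 lists of 60 further genes, of which 45 passed the level filter. None of the 45 passed limma's adjusted p under 0.05 in either direction, and 5 had an unadjusted p under 0.05. Their mean difference was higher in the mutant for 23 and lower for 22, with a median of 0.016, and 1 gene was lower and 1 higher in 6 of 6 pairs, where 1.68% and 3.62% of all genes were.

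In choline uptake and the CDP-choline steps, 4 of 11 genes were tested, and 0 passed. All 4 had a higher mean in the mutant, as did 6834 of all 13600 genes. Pcyt1b, the second gene for CTP:phosphocholine cytidylyl transferase, had the smallest p-value. Its controls stood at 2.64, 2.95, 3.21, 3.29, 4.70 and 1.57 RPKM from S0 to S5 and its mutants at 3.23, 3.98, 3.72, 4.20, 5.66 and 2.24 RPKM. The mutant was higher in 6 of 6 pairs by 0.17 to 0.34, on average by 0.26 (SE 0.060; adjusted p = 0.769 in limma). Chpt1, the cholinephosphotransferase of the last step, had a difference of 0.091 (SE 0.074, limma adjusted p = 0.887) and was below the other pairs in S5 (1.37 and 1.49 against 2.33 to 4.47 RPKM). Cept1, which serves both branches, was at 11.2, 8.49, 8.95, 17.6, 14.1 and 11.7 RPKM in the mutants and at 7.69, 10.2, 9.36, 18.1, 13.4 and 12.8 RPKM in the controls. Of the 7 genes under the filter, the transporter gene Slc44a3 stood at 5.15 and 6.12 RPKM in S5, while its highest level in S0 to S4 was 0.61 RPKM.

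Among ethanolamine, serine and methylation steps, 5 of 7 genes were tested and 0 passed. Selenoi, the ethanolaminephosphotransferase, listed in the files under its older symbol Ept1, had a difference of -0.057 (SE 0.060, limma adjusted p = 0.898). It stood above the other pairs in S5, at 10.9 RPKM in both libraries against 6.06 to 7.29 RPKM. Pemt, which methylates phosphatidylethanolamine to phosphatidylcholine, was near 1 RPKM throughout (0.96 to 1.61), with a difference of 0.092 (SE 0.069, limma adjusted p = 0.887). Ptdss1, a phosphatidylserine synthase, was the lowest of the 5 tested in S5 relative to the others, at 16.3 and 15.3 RPKM against 17.4 to 21.3 RPKM.

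For inositol and cardiolipin head groups, 7 of 8 genes were tested, and 0 passed. The mean was lower in the mutant for 6 of the 7, where it was for 49.8% of all genes tested, and Cdipt among them was lower in 3 of 6 pairs, with -0.73 in S0. Isyna1, which makes inositol phosphate from glucose phosphate, was lower in 5 of 6 pairs, at 17.9, 19.6, 20.6, 10.4 and 17.3 RPKM in the mutants of S0 to S4 against 25.0, 22.2, 27.7, 13.0 and 23.1 RPKM in their controls. In S5 it was the reverse, 22.2 against 20.8 RPKM, and the mean was -0.27 (SE 0.085, limma adjusted p = 0.881). Tamm41, a mitochondrial enzyme of the cardiolipin path, had a difference of -0.14 (SE 0.088, limma adjusted p = 0.887). Cdipt, the phosphatidylinositol synthase, stood at 46.0 and 50.4 RPKM in S5 and at 19.3 to 33.9 RPKM in S0 to S4. Cds2, which makes CDP-diacylglycerol, overlapped the other pairs in S5, at 6.52 and 7.49 RPKM against 6.25 to 11.8 RPKM.

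In the glycerol backbone list, 11 of 13 genes were tested and 0 passed. Agpat4, an acyltransferase, ranged from 8.92 to 12.2 RPKM over S0 to S4 but was at 0.47 and 0.25 RPKM in S5, with a genotype difference of 0.16 (SE 0.071, limma adjusted p = 0.887). Lpin1, a phosphatidate phosphatase, was higher by 0.98 in S0 and between -0.089 and 0.30 in the other pairs, with a mean of 0.27 (SE 0.13, limma adjusted p = 0.887). Of the 11 tested, Lpin3 was the highest in S5 relative to the others, at 6.23 and 5.40 RPKM against 1.36 to 4.69 RPKM. Both genes under the filter were also higher there: Dgat2, which makes triacylglycerol, at 5.30 and 4.74 against 0.17 to 1.29 RPKM, and Gpat3 (older symbol Agpat9) at 3.49 and 5.84 against 0.15 to 0.87 RPKM.

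In turnover, remodelling and sphingomyelin synthesis, 18 of 21 genes were tested and 0 passed. Phospho1, a phosphatase that cleaves phosphocholine and phosphoethanolamine, had low levels and the smallest p-value. Its controls stood at 1.16, 1.17, 1.18, 1.51, 1.22 and 3.80 RPKM from S0 to S5 and its mutants at 0.60, 0.94, 1.04, 1.01, 0.82 and 2.63 RPKM. The mutant was lower in 6 of 6 pairs, with a mean of -0.28 (SE 0.070, limma adjusted p = 0.769), and both S5 libraries were above the other 10, as for Chka. Lpcat2, a lysophosphatidylcholine acyltransferase, was higher by 1.00 in S0 and between -0.14 and 0.58 elsewhere, with a mean of 0.35 (SE 0.14, limma adjusted p = 0.886). Aldh7a1, which oxidizes betaine aldehyde made from choline, was at 5.72 to 5.73 RPKM in S5 and at 11.0 to 19.6 RPKM in S0 to S4, while Bhmt was listed at 0 in all 12 libraries.

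**Figure D4:**
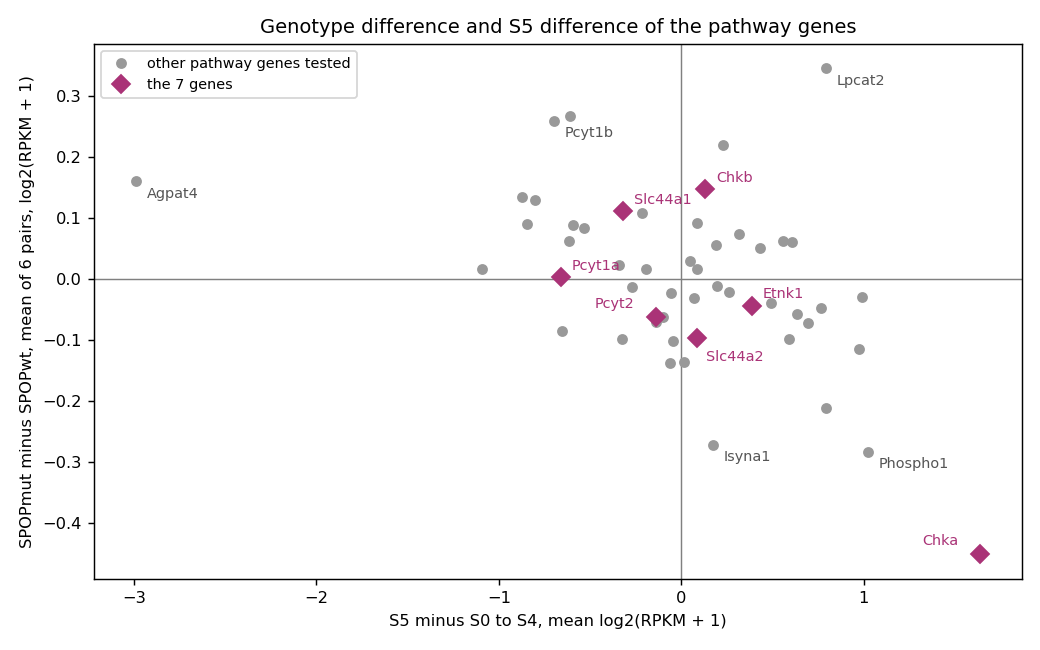
Mean SPOPmut minus SPOPwt difference over 6 pairs (vertical) against the mean of the S5 libraries minus that of S0 to S4 (horizontal), both in log2(RPKM + 1), for the 7 genes (diamonds) and the 45 other pathway genes tested (circles). Chka lies alone at the lower right, at -0.45 and 1.64, and Phospho1 is next in that corner at -0.28 and 1.02.

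Unnamed gene models aside, 5 genes were most like Chka in level over the 10 libraries of S0 to S4. Snord14d, a small nucleolar RNA, had r = 0.91 and the kinase gene Stk10 0.90. Znrd1as (0.87), the mitochondrial gene Chchd6 (0.84) and Sprr2a1 (0.83) came next. These values are the highest over all genes tested, and Chka separated by genotype in these libraries. The 5 genes were lower in the mutant in 5 (Snord14d, Stk10, Sprr2a1) or 6 (Znrd1as, Chchd6) of 6 pairs, so the values are a description. Sprr2a1 has close copies whose reads may be mixed with its own, and Snord14d is very short, so both values are uncertain. In S5 they did not all go the same way. Sprr2a1 stood at 219 (mutant) and 169 RPKM (control), far above its 0.33 to 3.07 RPKM in the 10 libraries. Znrd1as was also above its range, at 3.33 and 4.595 against 1.74 to 2.89 RPKM. Stk10, at 1.51 and 1.34 RPKM, was below its 1.80 to 3.08 RPKM. For Chchd6 (7.83 and 11.1 against 6.66 to 8.76 RPKM) the mutant lay within the range and the control above it. For Snord14d (1.93 and 1.03 against 1.89 to 6.78 RPKM) the control lay below it.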

How the data were processed

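The values are RPKM as the authors deposited them, 1 file per library with no header. STAR 2.4.0j is named in the submitters' processing notes, as are the genome builds mm10 and GRCm38. How reads were counted, and with which annotation, is not given in the sources used here. Per the labels' protocols, libraries were made with a kit that does not mark strand and read as paired ends of 51 bp. GENCODE M21 exon lengths and the steps between low values gave an estimate of depth; only 20.3 to 26.3% of values of up to 20 approximate reads lay within 0.04 of a whole read, so whole reads were not recovered and no count test was run.

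Values were transformed to log2(RPKM + 1), which understates differences of low genes. limma 3.58.1 in R 4.3.3 fitted pair and genotype with a trended, robust prior, with Benjamini-Hochberg adjustment of two-sided p-values over 13600 genes. The fit was also run on simulated data, but how many changes it recovered is not given here. A lack of calls therefore does not show that no gene differs. Tables and figures used Python 3.11.15, pandas 2.3.3, numpy 2.4.6 and matplotlib 3.10.9. Pairing came from the labels. Same-numbered libraries deviated from their group means together in S1 to S5 (correlations across genes of 0.753 to 0.954) but hardly in S0 (0.0602). These group means included S5, which stood far from the rest, and libraries of different number were not compared. The correlations therefore cannot show that the numbers mark pairs. The closest libraries of a group were the S1 and S2 controls (median chi-square of 1.20 per gene). This value used approximate reads, so it cannot tell whether these 2 differ by more than sampling noise.

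The 7 genes and the lists were chosen with earlier results of these data known. Named beside the 7 were, in each list, the 2 genes of smallest p and the highest and lowest in S5, and the 5 genes most correlated with Chka, unnamed gene models skipped. Slc44a3, Dgat2, Gpat3, Bhmt and the overlapping genes were named after their values were seen. Alternatives were another pseudocount, no level filter, 2 scalings, no block, pair weights and leaving out pairs.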

Additional observations from a re-analysis of the deposited data

Results flagged for a closer look

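Chka in the S5 libraries stood apart from the other pairs in both genotypes. Among the 6 mutant libraries the gap from S5 to the next was 0.871 of the whole range in log2(RPKM + 1), and among the 6 controls it was 0.829, both above the 0.625 that marks a lone value among 6. Of the 21 groups of 6 examined (each of the 7 genes in mutants, in controls and in pair differences), these 2 passed that limit. Chance passes about 1 group in 20, but that is no yardstick here: both libraries belong to 1 pair already known to stand apart, and 21.4% of all genes had both S5 libraries above the other 10. The values are thus a description. The parts of the epithelial markers and of the model (A or B) in the Chka level of S5 were not tested.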

How the results depend on the processing

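limma called 0 genes under every alternative except pair weights, which called 9 of 13600, none of them among the 45 other pathway genes; the cause was not tested. Without the replicate block for pair it called 0 genes and 29 had an unadjusted p under 0.05, against 761 with it. The genotype difference of Chka kept its sign under all 13 alternatives, from -0.51 without S1 to -0.36 with pair weights. Chka was lower in the mutant in every pair and was chosen for this contrast. Leaving out or weighting pairs therefore could not turn its sign, and nothing is read from it. Etnk1 and Slc44a2 also kept their sign, though Etnk1 stayed near 0, at -0.094 to -0.015. The genotype difference of Chkb turned negative without S0 (-0.030), without S0 and S5 (-0.088) and with pair weights. Pcyt2 turned positive under the same 3, Pcyt1a, near 0, changed sign under 4, and Slc44a1 under 1. Each such move was smaller than the SD over pairs. Leaving out 1 pair moved Chka between -0.51 and -0.37, Chkb between -0.030 and 0.24 and Pcyt2 between -0.15 and 0.032. All 63 alternative values of S5 against S0 to S4 moved by less than the SD within S0 to S4. Scaling moved the median of all genes, for the mean over pairs, by less than 0.1. The S5 genotype difference minus the mean of S0 to S4 moved more. Rescaling to a common sum raised it for every gene of the set. It went from -0.52 to -0.38 for Chka, from 0.27 to 0.42 for Pcyt1a and from -0.071 to 0.060 for Pcyt2. Quantile normalization gave -0.49, 0.23 and -0.079 for these, and moved Slc44a2 most, from 0.031 to 0.16. RPKM gives no counting error, so only the spread between libraries limits precision.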
